A study of Mus musculus with 24 samples.

Results

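Cathepsins are proteases of lysosomes and related granules, and 7 of their genes, Ctss, Ctsw, Ctsc, Ctsb, Ctsd, Ctsl and Ctsz, were followed in RNA-seq of natural killer (NK) cells from mice with 1 of 2 lymphomas. They were found by gene symbol, 7 of the 45237 genes in the count table, and all 7 passed the filter on low counts. Ctss was chosen by its measured level, which earlier results of these data showed to be higher in NK cells of late RMA and late RMA-KR tumors than in control cells, and the other 6 genes were taken because they belong with it. The values that chose Ctss are therefore given as a description. No test is reported for any of the 7 genes between late tumors and controls, and none for Ctss where control or late libraries enter the contrast.

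The NK cells came from spleens of wild-type (WT) C57BL/6J mice and were purified by flow cytometry. Mice were untreated (control) or received tumor cells into a vein, and the study used females 7 to 9 weeks old unless it specified otherwise. RMA is a mouse T lymphoma line that does not directly stimulate NK cells. RMA-KR is a clone derived from it that lacks B2m, and with it surface MHC-I, and carries the NKG2D ligand Rae1-β, and it strongly stimulates NK cells. In the study, NK cells became activated in mice with either tumor. Both lines express the fluorescent protein ZsGreen. The tumor clone is the same in all RMA-KR mice. There were 4 control libraries, 3 RMA early and 3 RMA-KR early libraries (day 2 for both), 3 RMA intermediate libraries (day 4), 5 RMA-KR intermediate libraries (day 7), 3 RMA late libraries (day 9) and 3 RMA-KR late libraries (day 14). Beyond day 2 the tumor and the day differ together, so that their parts in a difference between the models cannot be told apart.

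Cathepsins are made as inactive proforms and are activated in acidic compartments, where they degrade proteins and also cut chosen substrates. Most are cysteine proteases held in check by cystatins, whereas cathepsin D is an aspartic protease. Cathepsin S trims the invariant chain from MHC class II in antigen-presenting cells and, unlike most of its relatives, stays active at neutral pH. In NK cells cathepsin C, or dipeptidyl peptidase I, activates the progranzymes of cytotoxic granules, and cathepsin W is a protease found mainly in NK cells and cytotoxic T cells.

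Ctss (ENSMUSG00000038642) lies on the plus strand of chr3:95526786-95556403 in mm10. The 250 bases before its annotated start, chr3:95526536-95526785, are shown because Ctss is the gene with the largest difference that passed among the members. Capitals mark GAAANNGAA, the core of an interferon response element, whose first base lies 21 bases before the start. The same letters, searched on both strands, stand in 7.13% of 32851 promoter windows of this length. The sequence is from RefSeq (GRCm38.p6), in which 5 of the 7 genes were matched, and the motif was chosen after the sequence was seen. CACGTG, an E-box of lysosomal genes, and TTCNNNGAA, a STAT site, were also searched and had no match in Ctss. GAAANNGAA had no match in Ctsc, Ctsd, Ctsl or Ctsz. A match describes the letters and does not show a bound site.
Ctss: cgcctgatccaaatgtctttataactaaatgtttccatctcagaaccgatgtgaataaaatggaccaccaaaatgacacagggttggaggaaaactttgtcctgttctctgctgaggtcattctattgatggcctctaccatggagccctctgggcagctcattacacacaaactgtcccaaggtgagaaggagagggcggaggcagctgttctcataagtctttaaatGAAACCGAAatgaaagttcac

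Total counts per library ran from 5138651 to 14863500. Levels are given as normalized CPM, that is counts relative to the library size, scaled between libraries by TMM. Ctss had 274 to 2685 counts per library and Ctsl, the rarest member, 22 to 379. All 11 NK cell markers were detected in every group, with a summed level of 19063 to 37546. Of the 24 libraries, 4 stood apart: control 4 and RMA-KR intermediate 3, 4 and 5 had 1176 to 1275 normalized CPM of 8 immediate early genes, against 4148 to 9046 in the others. RMA-KR intermediate 3 to 5 also had the lowest NK marker sums, 19063 to 20586. Where leaving out these 4 libraries changed a call or a direction, or moved a value by over 1.5 times, both values are given.

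In control NK cells the members covered a wide range of levels. Per kilobase of median transcript length, Ctsw was highest at 1584 normalized CPM per kb, followed by Ctsd at 819, Ctsc at 578 and Ctsb at 167. Ctsz at 50.1 and Ctss at 44.6 came next, and Ctsl was lowest at 12.1. Ctsz and Ctss were the only neighbours in this order whose 4 control libraries overlapped. In late RMA tumors Ctss stood at 150 normalized CPM per kb and in late RMA-KR tumors at 97.5, between Ctsb and Ctsz. The lymphocyte cathepsin and the lysosomal protease Ctsd thus made up most of the family's transcripts. The summed level of the 7 genes was 4295.5 ± 427 normalized CPM in controls (SD, n = 4) and 3433 ± 537 in RMA-KR late libraries (SD, n = 3). Its mean was 3917, 4428 and 4527 in RMA early, intermediate and late libraries, and 4276 and 3975 in RMA-KR early and intermediate libraries.

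**Figure D1:**
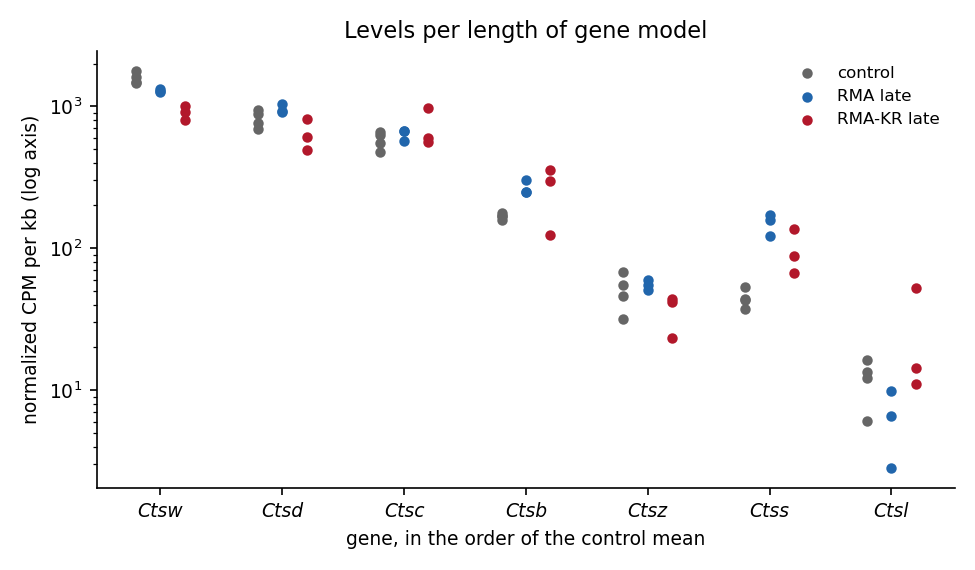
Level of the 7 cathepsin genes in each control, RMA late and RMA-KR late library (1 point per library, colored by group), in normalized CPM per kilobase of median transcript length on a log axis. Ctsw, Ctsd and Ctsc stay above the rest, and the control points of Ctsz and Ctss overlap (means 50.1 and 44.6) while those of Ctss in RMA late average 150.

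Ctss was low in control NK cells and higher from the intermediate stage of RMA growth. Controls held 50.6, 59.4, 72.7 and 58.9 normalized CPM, and RMA early libraries 43.2, 36.4 and 76.3. RMA intermediate libraries held 172, 137 and 173, and RMA late libraries 231, 216 and 165. Every library from day 4 and day 9 of RMA lay above every control and every RMA early library.

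With RMA-KR the Ctss levels were more mixed. RMA-KR early libraries held 66.0, 93.7 and 67.9 normalized CPM. The 5 intermediate libraries held 76.8, 60.5, 99.8, 105 and 146, and the 3 late libraries 186, 120 and 90.6. The late group lay above all controls but overlapped the intermediate group, and the highest intermediate value came from library 5, which is among those that stood apart.

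**Figure D2:**
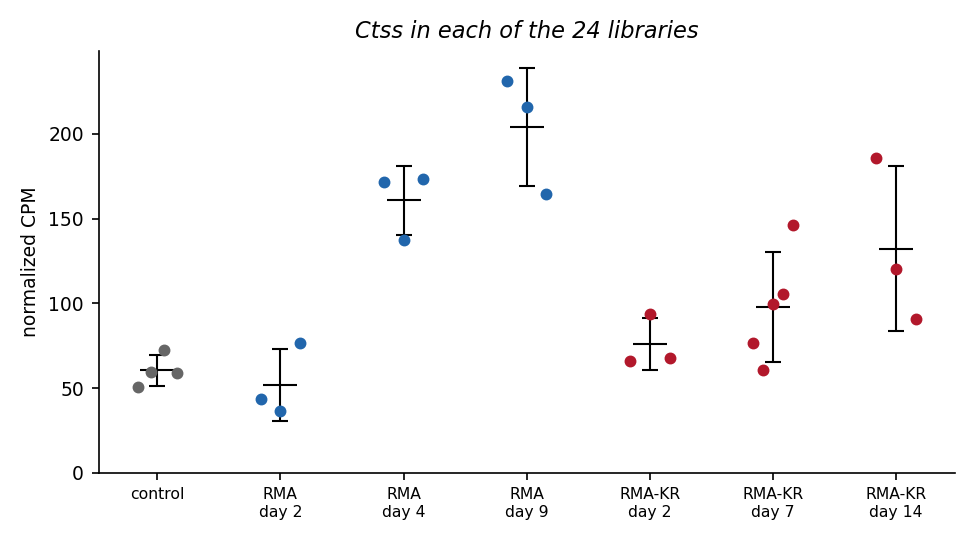
Ctss in each of the 24 libraries, in normalized CPM, by group, with the group mean and SD. The RMA intermediate and late libraries sit between 137 and 231, above the controls at 50.6 to 72.7, and the RMA-KR late libraries spread from 90.6 to 186.

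Between day 2 and day 4 of RMA growth, Ctss rose 3.10-fold, from 52.0 ± 21.3 to 161 ± 20.3 normalized CPM (SD, n = 3 each). The log2 fold change was 1.63 (SE 0.31, 95% interval 0.98 to 2.28, adjusted p = 0.00881 by edgeR's quasi-likelihood test), and the groups did not overlap. Ctss was the only one of the 7 members to pass in this comparison, in which 2.33% of all 17097 genes tested passed. The difference rests in part on RMA early 1, without which it was 1.53 (adjusted p = 0.0678), and on the spread shared between groups, since a fit to the 6 libraries alone gave an adjusted p of 0.0708.

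Signals of other cells were examined beside this rise, since macrophages, dendritic cells and B cells also make cathepsin S. In RMA intermediate libraries 9 of 17 macrophage and monocyte markers were at 0, and their sum was 0 to 4.90 normalized CPM against 3.81 to 23.4 in RMA early libraries. This sum leaves out Ccr2, which by itself gave 99.4% of the list. With Ccr2 the sum was 978 to 1028 at day 4 and 767 to 1064 at day 2. The 11 dendritic cell markers summed to 881 to 1006 at day 4 and 592 to 852 at day 2, mostly Itgax, which NK cells also express. Bst2, a membrane protein induced by interferon, was the 1 of them that passed, as higher (1.55, adjusted p = 0.0480), and 2 of the 8 tested had a positive difference. The Bst2 call held in 5 of 15 alternative settings and was lost without any 1 RMA early or RMA intermediate library (adjusted p up to 0.224). Without Itgax and Bst2, 6 of the 9 others were at 0 at day 4, with sums of 13.6 to 26.7 against 24.7 to 64.7 at day 2. All 12 granulocyte markers were at 0 at day 4. The 14 B cell markers summed to 314 to 342 at day 4 and 221 to 282 at day 2, of which Ighm made up most. None of the 12 tested passed, 4 had a positive difference, and the median was -1.39. Without Ighm the sums were 6.19 to 13.9 at day 4, with 5 of 13 markers at 0, and 7.87 to 13.6 at day 2. The 12 T cell markers, mostly Trbc1, Cd28 and Trbc2, summed to 370 to 416 and 397 to 563. Immediate early genes also moved, with sums of 4510 to 4898 at day 4 and 5989 to 7927 at day 2, and the part of these, of Bst2 and of Ighm in the Ctss difference was not tested. In bulk RNA of a sorted population, fewer cells that make a transcript and less transcript per cell cannot be told apart.

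**Figure D3:**
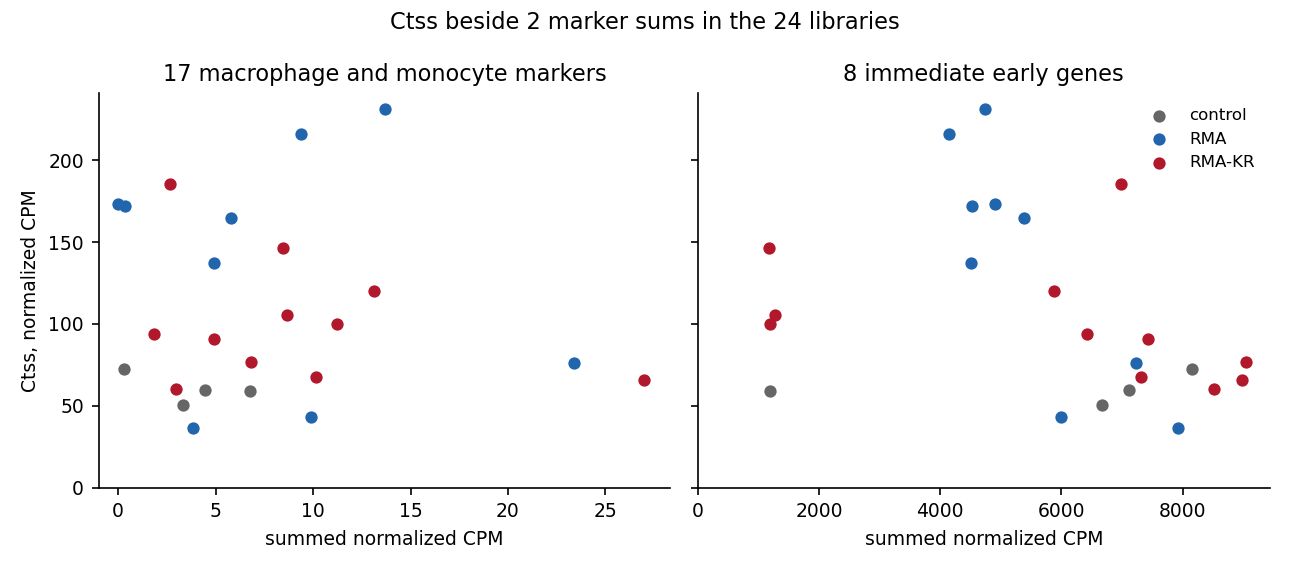
Ctss (vertical, normalized CPM) against the summed normalized CPM of 17 macrophage and monocyte markers without Ccr2 (left) and of 8 immediate early genes (right), 1 point per library, colored by control, RMA or RMA-KR. RMA intermediate libraries have Ctss at 137 to 173 with macrophage and monocyte sums of 0 to 4.90, and the 4 libraries with immediate early sums of 1176 to 1275 stand apart at the left of the right panel.

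No Ctss difference passed in the other comparisons where it could be tested. At day 2 the level was 52.0 ± 21.3 with RMA and 75.9 ± 15.5 with RMA-KR (SD, n = 3 each), a log2 difference of -0.55 (SE 0.31, adjusted p = 0.468). In this comparison 0 of the 7 members and 0.339% of all genes passed. From day 2 to day 7 of RMA-KR the log2 difference was 0.36 (95% interval -0.21 to 0.94, adjusted p = 0.605), and without the 4 libraries that stood apart it was -0.16. There, 0 of 7 members and 0.632% of all genes passed. Between the intermediate stages, RMA exceeded RMA-KR by 0.72 (95% interval 0.16 to 1.27, adjusted p = 0.310), and by 1.23 without those libraries (adjusted p = 0.128). No member passed, against 0.643% of all genes.

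The change of Ctss from early to intermediate was 1.27 smaller on the log2 scale with RMA-KR than with RMA, as the interaction term was -1.27 (SE 0.41, 95% interval -2.11 to -0.42). Its adjusted p was 0.239, so that the rise with RMA was not shown to differ from the RMA-KR change. The term was -1.76 without the 4 libraries (adjusted p = 0.213). In this test 0 of 7 members passed, against 0.129% of all genes.

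Against controls, by values that chose the gene, Ctss was 3.37 times the control level in RMA late libraries (204 ± 34.7 against 60.4 ± 9.11 normalized CPM) and 2.19 times in RMA-KR late libraries (132 ± 48.6). Of all genes, 2.66% passed in the first of these contrasts and 1.22% in the second, and nothing is read from them for the members. All tumor groups share the same 4 control libraries. At earlier stages the log2 differences of Ctss from control were -0.22 in RMA early, 1.41 in RMA intermediate (1.42 without the 4 libraries that stood apart), 0.33 in RMA-KR early and 0.69 in RMA-KR intermediate libraries. The last was 0.19 without control 4 and RMA-KR intermediate 3 to 5. From intermediate to late, Ctss differed by 0.34 in RMA and by 0.44 in RMA-KR, the latter 0.96 without those libraries, and late RMA exceeded late RMA-KR by 0.63.

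**Figure D4:**
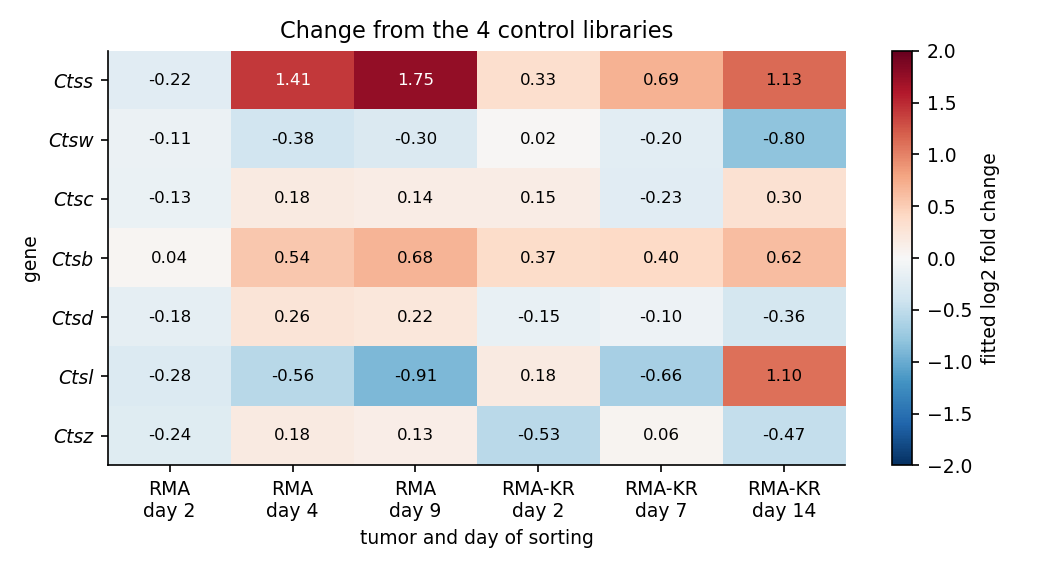
Heat map of the fitted log2 fold change of each of the 7 genes (vertical) from the 4 control libraries in the 6 tumor groups (horizontal), red for higher and blue for lower. Ctss runs from -0.22 at RMA day 2 to 1.75 at RMA day 9, Ctsw is lowest at RMA-KR day 14 (-0.80), and the late values carry no test.

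Ctsw, the lymphocyte cathepsin, fell late in RMA-KR growth. Controls held 1749, 1769, 2124 and 1907 normalized CPM, and RMA-KR early libraries 2004, 1717 and 2029. RMA-KR intermediate libraries held 1731, 1903, 1453, 1642 and 1463, and RMA-KR late libraries 960, 1192 and 1092. All 3 late libraries lay below every other library of the series.

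From day 7 to day 14 of RMA-KR the level of Ctsw fell 1.52-fold, from 1638 ± 189 (SD, n = 5) to 1081 ± 117 (SD, n = 3). The log2 fold change was -0.60 (SE 0.12, 95% interval -0.84 to -0.36, adjusted p = 0.0223 by edgeR's quasi-likelihood test). It was the 1 member of the 6 tested that passed, where 0.328% of all genes passed. The late libraries of this comparison also entered the values that chose Ctss. The adjusted p was above 0.05 in 6 of 17 alternative settings, among them the fits without RMA-KR late 1 (adjusted p = 0.226), RMA-KR late 3 (0.154) or RMA-KR intermediate 4 (0.0526), and without control 4 and RMA-KR intermediate 3 to 5 (-0.73, adjusted p = 0.0524).

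With RMA the Ctsw values stayed nearer to control. RMA early libraries held 1721, 1944 and 1582 normalized CPM, RMA intermediate libraries 1321, 1466 and 1554, and RMA late libraries 1513, 1515 and 1584. The intermediate and late RMA libraries all lay below the lowest control. At day 4 the log2 difference from control was -0.38 (SE 0.12, adjusted p = 0.112), which missed the threshold in the main edgeR fit. The difference passed in 3 of 16 alternative settings (lowest adjusted p = 0.0172). These were DESeq2 (adjusted p = 0.0217 in 1 of its settings) and edgeR with a stricter filter on low counts. None of the 6 members tested passed in the main edgeR fit, against 2.35% of all genes.

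At the late stage Ctsw was higher with RMA than with RMA-KR in all 3 libraries of each, by 0.51 on the log2 scale (95% interval 0.24 to 0.77, adjusted p = 0.655). No gene at all passed the main edgeR test here (0%), although 1249 genes had an unadjusted p under 0.05. DESeq2 called 67 with default settings and 16 with the option betaPrior=TRUE. Ctsw was among the 67, with an adjusted p of 0.0492, and was not called with betaPrior=TRUE. The change from intermediate to late differed between the models by -0.69 for Ctsw (SE 0.17, adjusted p = 0.369), and by -0.81 without the 4 libraries that stood apart (adjusted p = 0.411). Again 0% of genes passed in the main edgeR fit, and 1847 had an unadjusted p under 0.05. DESeq2 called 87 with default settings and 15 with betaPrior=TRUE, and Ctsw passed in both (lowest adjusted p = 0.0202). Against controls, without a test, the log2 difference of Ctsw was -0.30 in RMA late and -0.80 in RMA-KR late libraries.

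Ctss was also set beside Ctsw within each library. The ratio of Ctsw to Ctss in normalized CPM was 29.2 to 34.5 in controls, 7.69 to 10.7 in RMA intermediate, 6.55 to 9.62 in RMA late and 5.17 to 12.1 in RMA-KR late libraries. In RMA-KR intermediate libraries it spread from 10.01 to 31.5. At day 2 it ran from 20.7 to 53.4 with RMA, on both sides of the controls, and from 18.3 to 30.3 with RMA-KR. Across the 24 libraries the Pearson correlation of their log2 levels was -0.62, over points that share groups, and without a test.

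Ctsc, which activates granzymes, had no difference that passed. Controls held 459, 520, 546 and 396 normalized CPM, RMA early libraries 438, 417 and 463, and RMA intermediate libraries 528, 496 and 608. The difference between these RMA stages was 0.31 on the log2 scale (adjusted p = 0.515), with no overlap. RMA late libraries held 556, 559 and 474 and RMA-KR early libraries 512, 549 and 533. RMA-KR intermediate libraries held 478, 665, 347, 291 and 262, of which the last 3, the lowest of the series, are those that stood apart. RMA-KR late libraries held 813, 497 and 467. The difference from control at day 7 was -0.23 (adjusted p = 0.999) with these libraries and 0.19 without them and control 4, and that from day 7 to day 14 was 0.53 with them (adjusted p = 0.365) and 0.07 without.

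Ctsb, a cysteine protease with both endopeptidase and exopeptidase activity, was higher in value in most tumor groups without passing in the main edgeR fit. Controls held 223, 200, 213 and 213 normalized CPM. All RMA intermediate (321, 276 and 330), RMA-KR early (240, 275 and 306) and RMA-KR intermediate libraries (301, 226, 239, 316 and 315) lay above them. The log2 differences were 0.54 (adjusted p = 0.283), 0.37 (adjusted p = 0.722) and 0.40 (adjusted p = 0.901), the last 0.33 without the 4 libraries that stood apart. In RMA-KR early against control 0 of 6 members and 0.0994% of all genes passed, and in RMA-KR intermediate against control 0 of 6 and 0.0175%. The RMA intermediate difference passed, among the alternatives run, only when the 7 libraries compared were fitted alone (0.56, adjusted p = 0.0208). In that fit 1246 of all 12191 genes passed. RMA early libraries held 196, 287 and 169, RMA late libraries 387, 315 and 315, and RMA-KR late libraries 449, 375 and 156. RMA-KR late 3, at 156, lay below all controls, and without it the RMA-KR late difference from control was 1.00 in place of 0.62.

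Ctsd, the aspartic protease of lysosomes, was at 1319, 1704, 1820 and 1456 normalized CPM in controls. RMA early libraries held 1319, 1420 and 1432, RMA intermediate libraries 1889, 1794 and 1956, and RMA late libraries 1981, 1772 and 1747. All RMA intermediate libraries lay above all RMA early libraries, by 0.43 on the log2 scale (95% interval 0.09 to 0.78, adjusted p = 0.168). RMA-KR early libraries held 1486, 1292 and 1478, RMA-KR intermediate libraries 1669, 1788, 1274, 1309 and 1311, and RMA-KR late libraries 1174, 1572 and 945. RMA was above RMA-KR without overlap at the intermediate stage (0.35, adjusted p = 0.345) and at the late stage (0.58, adjusted p = 0.655). How many of all genes lay apart in this way was not determined. The intermediate difference was 0.12 without the 4 libraries that stood apart.

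Ctsz, a carboxypeptidase, held 46.0, 66.6, 78.8 and 97.7 normalized CPM in controls, a spread that covered most tumor libraries. RMA early libraries held 66.6, 39.3 and 78.4, RMA intermediate libraries 60.4, 99.8 and 86.0, and RMA late libraries 79.1, 85.8 and 72.8. The RMA-KR early libraries held 35.3, 37.8 and 76.8, the intermediate libraries 67.1 to 81.7 with a median of 75.0, and the late libraries 60.2, 62.8 and 33.7. The late RMA-KR libraries lay below all intermediate ones, with a log2 difference of -0.53 (adjusted p = 0.422; -0.60 without the 4 libraries that stood apart), and below all late RMA libraries, where late RMA exceeded late RMA-KR by 0.60 (adjusted p = 0.656).

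Ctsl, a cysteine protease that takes the role of cathepsin S in thymic epithelium, was near the limit of what these libraries resolve. Controls held 9.43, 4.24, 11.5 and 8.57 normalized CPM, and all RMA libraries lay between 1.98 and 11.9. Single RMA-KR libraries stood out, RMA-KR early 2 at 21.1 and RMA-KR late 3 at 36.5, the latter also lowest of its group in Ctss, Ctsc, Ctsb, Ctsd and Ctsz. The difference from RMA-KR intermediate to late was 1.76 (adjusted p = 0.364) with RMA-KR late 3 and 0.76 without it, and 1.85 without the 4 libraries that stood apart. All late RMA libraries lay below all late RMA-KR libraries, with a log2 difference of -2.003 (95% interval -3.71 to -0.29, adjusted p = 0.655), which was -0.98 without RMA-KR late 3.

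**Figure D5:**
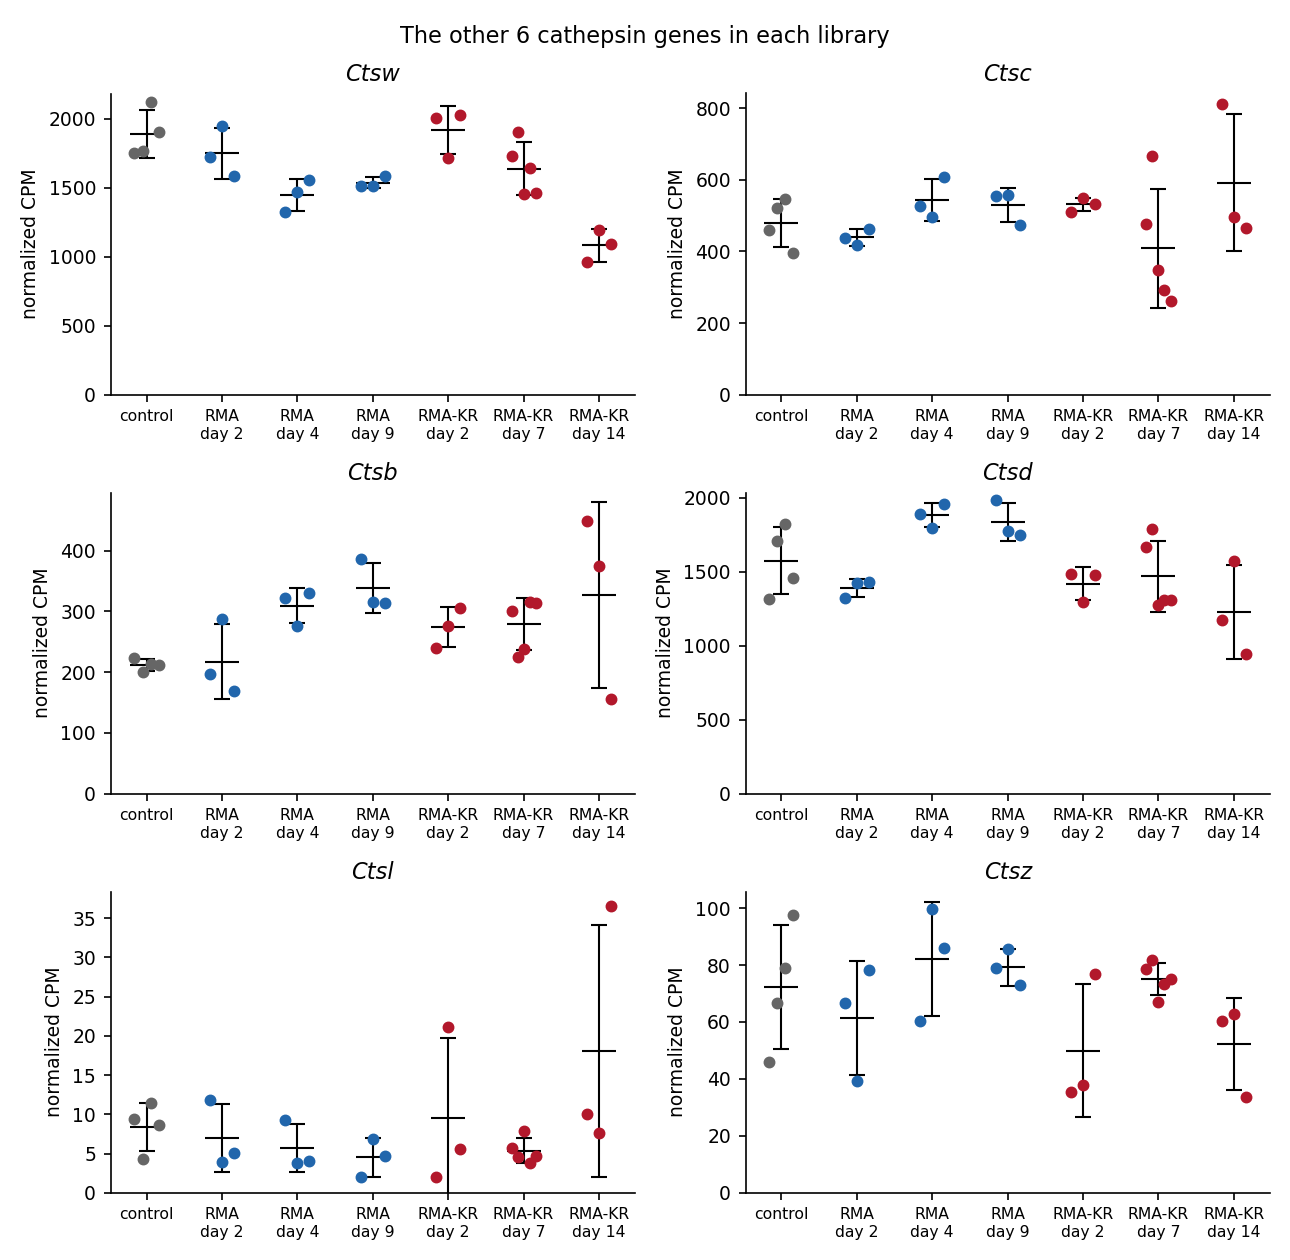
Ctsw, Ctsc, Ctsb, Ctsd, Ctsl and Ctsz in each library, in normalized CPM, by group, with the group mean and SD; an SD bar that would pass below 0 is cut at 0. Ctsw is lowest in the 3 RMA-KR late libraries (960 to 1192), and Ctsl is highest in RMA-KR late 3 (36.5).

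In the remaining comparisons no member passed. RMA early against control had 0 of 6 members and 0% of all genes, with 1204 genes at an unadjusted p under 0.05 by edgeR. DESeq2 called 76 with default settings and 32 with betaPrior=TRUE. RMA late against RMA intermediate also had 0 of 6 members and 0% of all genes, with 763 genes at an unadjusted p under 0.05. Here DESeq2 called 41 with default settings and 0 with betaPrior=TRUE.

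Of 18 other cathepsin and related protease genes listed, 7 were expressed enough to be tested (Ctsa, Ctse, Ctsf, Ctsh, Ctso, Lgmn and Napsa). Napsa, which encodes an aspartic protease related to cathepsin D, was the 1 that passed in any comparison. Its level was 59.6 normalized CPM in controls, 133 in RMA intermediate, 163 in RMA late and 116 in RMA-KR late libraries. Napsa rose between control and RMA late by 1.45 on the log2 scale (SE 0.32, adjusted p = 0.0117), a call lost without control 1 (1.29, adjusted p = 0.0598) or control 4 (1.40, adjusted p = 0.0508). It was 1 of the 7 tested there, where 2.66% of all genes passed. At day 4 its difference from control was 1.15 (adjusted p = 0.0561). The median over the 7 genes in RMA late against control was 0.49, beside -0.18 over all genes. The median over all genes depends on the filter. It was -0.048 under a stricter filter, which kept only the 7800 genes that reached 10 counts in each library. Medians of lists are given under the main filter only.

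Of 23 cathepsin inhibitor genes listed, 8 were tested and none passed in any comparison, where 0% to 2.66% of all genes did. The nearest was Cst7, which encodes cystatin F, an inhibitor stored in NK cell granules that acts on cathepsin C. Cst7 went from 359 normalized CPM in controls to 556 in RMA intermediate libraries, a log2 difference of 0.63 (adjusted p = 0.0539), and passed with DESeq2 (adjusted p = 0.0122). The median over the 8 inhibitors in that comparison was 0.29, beside -0.29 over all genes and -0.044 over those of the stricter filter.

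The genes that cathepsins S and C serve were described from lists as well. All 11 MHC class II presentation genes, whose invariant chain is the substrate of cathepsin S, were tested. None passed in any comparison, where 0% to 2.66% of all genes did. In RMA intermediate against RMA early their median was -0.87, beside -0.11 over all genes (-0.012 under the stricter filter), while Ctss rose. Their summed level was 78.5 to 94.7 normalized CPM in RMA intermediate and 42.9 to 135 in RMA early libraries, and reached 206 to 306 in RMA-KR intermediate 3 to 5.

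Of 12 genes of granule proteases, perforin and the granule matrix, 7 were tested. Gzmb, a granzyme that cathepsin C activates, rose in RMA intermediate libraries by 1.44 from control (adjusted p = 0.00834) and was higher by 1.51 than in RMA-KR intermediate libraries (adjusted p = 0.00771). The second was 1.17 without the 4 libraries that stood apart (adjusted p = 0.0973), and the first 1.24 without control 1 (adjusted p = 0.0533). Gzmb also rose from control to RMA late (1.18, adjusted p = 0.0293), which no longer passed without control 1, 2 or 4 or without RMA late 1 or 2 (adjusted p up to 0.169), nor without the 4 libraries that stood apart (0.97, adjusted p = 0.0635) or with only the libraries of both groups (adjusted p = 0.0756). Gzmk rose in RMA-KR late libraries by 2.63 from control, from 10.5 to 65.2 normalized CPM, and by 2.41 from RMA-KR intermediate. The second call held in 9 of 17 alternative settings. It was lost without RMA-KR intermediate 1, 4 or 5 or RMA-KR late 1 or 3, with only the libraries of both groups, and without the 4 libraries that stood apart (2.94, adjusted p = 0.229, the highest over the settings run). The difference from control was lost only without those 4 (2.70, adjusted p = 0.0521). Srgn, the proteoglycan of the granule matrix, rose by 0.90 from control to RMA late and by 0.80 to RMA-KR late, the latter lost without control 1, 2 or 4 or RMA-KR late 1 (adjusted p up to 0.189), and without the 4 libraries that stood apart (0.77, adjusted p = 0.0720). Gzmc passed in 3 comparisons with RMA-KR early, whose libraries held 0 to 0.0766 normalized CPM of it against 1.74 to 4.85 in controls. The RMA-KR early levels lie near the floor of detection, and alternative settings are not reported for Gzmc. In RMA intermediate against control 1 of the 7 granule genes passed, where 2.35% of all genes did. The median of the 7 was 0.51, beside -0.29 over all genes and -0.044 over those of the stricter filter. In RMA late against control 2 of the 7 passed (2.66% of all genes), in RMA-KR late against control 2 (1.22%) and in RMA-KR late against RMA-KR intermediate 1 (0.328%). The comparisons with Gzmc had 1 of the 7 each, where 0.0994% (RMA-KR early against control), 0.339% (RMA early against RMA-KR early) and 0.632% (RMA-KR intermediate against RMA-KR early) of all genes passed.

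Of 55 other lysosomal genes, 53 were tested. In RMA intermediate against control 2 rose, Grn, encoding progranulin (1.15, adjusted p = 0.0424), and Naglu, encoding a heparan sulfate glucosaminidase (0.97, adjusted p = 0.0255). They were 2 of 53, where 2.35% of all genes passed. The list's median was 0.13, beside -0.29 over all genes and -0.044 over those of the stricter filter. In RMA intermediate against RMA early, Npc2, a cholesterol carrier, rose by 0.88 (adjusted p = 0.0471) and Neu1, a sialidase, fell by 1.33 (adjusted p = 0.0326). These 2 of 53 stand beside 2.33% of all genes, and the list's median was 0.15 beside -0.11 (-0.012 under the stricter filter). For each of these 4 genes the adjusted p was above 0.05 in 7 to 9 of the 15 or 16 alternative settings, among them the fit without any 1 RMA intermediate library (Grn, adjusted p up to 0.178, Naglu 0.114, Npc2 0.187, Neu1 0.181). Grn was also lost without control 1, 3 or 4, Naglu without any 1 control, and Npc2 (adjusted p up to 0.224) and Neu1 without RMA early 1 or 2. Without the 4 libraries that stood apart, Grn (1.19, adjusted p = 0.0805) and Npc2 (0.85, adjusted p = 0.0502) were lost. At day 2, Sgsh, a sulfatase, was higher with RMA than with RMA-KR (2.84, adjusted p = 0.0498), a call lost without any 1 RMA early library or without RMA-KR early 1 or 2 (adjusted p up to 0.178), and without the 4 libraries that stood apart (2.86, adjusted p = 0.0834). It was 1 of 53, where 0.339% of all genes passed.

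Genes whose log2 level ran most like that of Ctss were sought among 8372 genes over the 24 libraries, which share groups and therefore are not independent points. The closest were Gimap7 (Pearson r = 0.905), Ldha (0.898), Capg (0.888), S100a4 (0.880) and Atp5o (0.878). Ldha encodes lactate dehydrogenase A, and Capg an actin-capping protein. Capg had 48.4 ± 12.2 normalized CPM in controls (SD, n = 4), and 239 in RMA intermediate, 269 in RMA late and 175 in RMA-KR late libraries. Ldha went from 502 in controls to 1328, 1487 and 1082 in those groups, and Gimap7, a GTPase of lymphocytes, from 150 to 366, 463 and 364. Among the members, Ctsb was nearest to Ctss (r = 0.650, rank 587) and Ctsw farthest (r = -0.62). Ctsd ran with Ctsz (0.575) and against Ctsl (-0.57). RMA-KR late 3 held the lowest Ctsd (945) and Ctsz (33.7) and the highest Ctsl (36.5) of all libraries. How far it carries these correlations was not tested.

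Markers of other cell types beside the late differences of Ctss were as follows. The macrophage and monocyte sum without Ccr2 was 0.316 to 6.79 normalized CPM in controls, 5.78 to 13.7 in RMA late and 2.67 to 13.1 in RMA-KR late libraries, with 9 and 8 of the 17 markers at 0 in the late groups. The dendritic sum without Itgax and Bst2 was 13.5 to 25.2, 16.7 to 40.1 and 5.40 to 32.5. Ccr2, left out of the first sum, rose in RMA-KR late libraries (0.69, adjusted p = 0.0277), a call lost without control 2, 3 or 4, without RMA-KR late 1 or 3, or without the 4 libraries that stood apart (adjusted p up to 0.106). Bst2 rose in RMA late libraries (1.78, adjusted p = 0.00975), and this call was lost without RMA late 2 (1.52, adjusted p = 0.0947). The median B cell sum was 314 in controls, 342 in RMA late and 474 in RMA-KR late libraries, again mostly Ighm. Without Ighm it was 5.30 to 39.0 in controls, 9.12 to 13.9 in RMA late and 9.79 to 46.9 in RMA-KR late libraries. Of the 12 B cell markers tested, 5 had a positive difference in each late group, with medians of -0.13 in RMA late and -0.82 in RMA-KR late, and none passed. The T cell sum was 453 to 564 in controls, 533 to 697 in RMA late and 487 to 688 in RMA-KR late libraries. None of the 10 tested passed, 6 had a positive difference in RMA late (median 0.43) and 4 in RMA-KR late (median -0.33). The granulocyte sum was 0.193 to 1.87 in controls, 0.0860 to 18.7 in RMA late and 0 to 3.37 in RMA-KR late libraries. The 18.7 came from RMA late 2. The immediate early sum was 4148 to 5376 in RMA late and 5870 to 7429 in RMA-KR late libraries. The part of these genes in the late Ctss levels was not tested.

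The other members lie elsewhere in mm10, Ctsw (ENSMUSG00000024910) on the minus strand of chr19:5465043-5468507 and Ctsc (ENSMUSG00000030560) on the plus strand of chr7:88278085-88310888. Ctsb (ENSMUSG00000021939) is on the plus strand of chr14:63122462-63145923, and Ctsd (ENSMUSG00000007891) on the minus strand of chr7:142375911-142388038. Ctsl (ENSMUSG00000021477) and Ctsz (ENSMUSG00000016256) are on the minus strands of chr13:64359337-64370890 and chr2:174427493-174439039. Counts cover whole genes, and gene models overlap some members. Ctsd shares 6757 bases with Gm49369 on its own strand, Ctsc 4743 bases with the antisense lincRNA Gm26522, Ctsl 1971 bases with the antisense Gm47123, Ctsb 774 bases with Fdft1, and Ctss 557 bases with the pseudogene Hmgb1-ps5. Whether counting used strand is not given in the sources used here, so that how reads in an antisense overlap were assigned cannot be told. The effect of the overlaps on the counts, that of Gm49369 on Ctsd included, was not tested.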

How the data were processed

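Libraries were made from total RNA with a polyA mRNA-seq kit. Per the submitters' processing notes and the study's methods, the authors trimmed reads with cutadapt 1.10, removed ribosomal reads with Bowtie2 2.2.8, aligned to mm10 with STAR 2.5.3a and counted on Ensembl genes with HTSeq 0.6.1p1 in union mode. The deposited values used here are the authors' whole read counts per gene, with no normalization. The 24 count columns out of 112 were used here. Left aside were 48 columns of normalized values per library and the authors' comparisons (fold changes and p-values from DESeq2 1.16.1).

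The main test was edgeR 4.0.16 in R 4.3.3. The filterByExpr step, given the 7 groups, retained 17097 genes (37.8%). After TMM scaling, a quasi-likelihood model (robust dispersion) with a mean for each group was fitted over the whole set of 24 libraries. Benjamini-Hochberg adjustment ran over all genes tested, and a gene passed at an adjusted p under 0.05. Overlap between the libraries of 2 groups was recorded for the 7 members only. No share over all genes stands beside it, and a lack of overlap is a description. Standard errors come from the ratio of the log2 fold change to the root of F. P-values measure the spread between samples labelled as separate, and no 2 libraries of a group agreed within sampling noise. Log2 levels for correlations used a prior count of 2, over genes with a mean of at least 10 normalized CPM.

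The members, lists and comparisons were chosen with earlier results of these data known. Named genes are the 7 members, list genes that passed or came nearest, and the 5 genes most like Ctss. Marker sums without Ccr2, Itgax, Bst2 and Ighm and the motif were chosen after their values were seen. The fit was tested on simulated data drawn with its own dispersions. This did not check how well those dispersions describe the libraries. Alternatives were DESeq2 1.42.0 (default settings and betaPrior=TRUE), other scaling, filters and sample sets, and leaving out each library.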

Additional observations from a re-analysis of the deposited data

How the results depend on the processing

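Of 1480 alternative values for 137 results, 576 with 1 library left out and 747 under other settings kept their direction and their side of the threshold, or moved by less than 1 SD. Calls were lost in 61 and 39 of these values and gained in 2 and 29, another 7 and 17 moved, and 2 tested values reversed. The reversed tested values were Ctsc in RMA-KR intermediate against control (0.19) and Ctss in RMA-KR intermediate against RMA-KR early (-0.16), both without control 4 and RMA-KR intermediate 3 to 5, an alternative chosen after seeing the data. Values without a test were judged by the size of the move only, and some changed sign. They were Ctss in RMA early against control (-0.57 to 0.0055), Ctsz in RMA late against control (-0.050 to 0.32) and Ctsc in RMA-KR late against control (-0.0057 to 0.49). The model difference of Ctss from intermediate to late also did (-0.23 to 0.63). In RMA intermediate against RMA early the number of members called, 1, was 0 when only the 6 libraries were fitted and ranged from 0 to 1 with 1 library left out. In RMA-KR late against RMA-KR intermediate it was 1, but 0 with a fold above 2 required, with the replicate block, with only the libraries of both groups and without the 4 libraries named above, and it ranged from 0 to 1 with 1 library left out. In RMA intermediate against control it was 0, but 1 with at least 10 counts in every library, with DESeq2 under default settings and with betaPrior=TRUE, and with only the libraries of both groups. More of all genes also passed there than the 401 of 17097 of the main fit. The numbers were, in the same order, 597 of 7800, 955 of 16021, 889 of 11026 and 1246 of 12191. In RMA late against RMA-KR late it was 1 with DESeq2's default settings, where 67 of 15211 genes passed. For the model difference from intermediate to late it was 1 with either DESeq2 setting. There 87 of 16845 genes passed with default settings and 15 of 11026 with betaPrior=TRUE. Of the 5 genes most like Ctss, 2 stayed among the first 5 by Spearman correlation and 1 without the control libraries. The cause of these changes was not tested.

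Replicate numbers did not pair the samples, since in no comparison did every same-numbered pair correlate above 0.1. With the replicate block Ctsw in RMA-KR late against RMA-KR intermediate was -0.64 (adjusted p = 0.0641) and Ctss in RMA intermediate against RMA early 1.64 (adjusted p = 0.0125). Over all genes the number called moved by more than 1.5 times: in RMA intermediate against RMA early 399 were called by edgeR, 1363 and 1130 by DESeq2 with default settings and betaPrior=TRUE, 85 with only the 6 libraries, 697 without a filter and 702 with at least 10 counts in every library. In RMA-KR late against RMA-KR intermediate the numbers were 56 by edgeR, 345 and 248 by DESeq2, 19 with only the libraries of both groups, 16 with the replicate block, 306 without a filter and 12 without the 4 libraries. Counts below about 100 per library, as for Ctsl, limit what these libraries resolve.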
